A study of Homo sapiens with 4 samples.

Results

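Caco-2 cells also make some of the plasma proteins that the liver secretes. RNA of 40 genes for liver-secreted plasma proteins was followed here through the 4 arrays of a study of growth support and bile acid. The genes were chosen by name, with earlier results of these data known. They encode carriers such as albumin, inter-alpha-trypsin inhibitor chains, fetuins, protease inhibitors, fibrinogen chains, coagulation factors and complement components. A gene was measured by the probe set, a group of probes for 1 transcript, that was annotated with its symbol alone, and by the one with the highest mean where there were several. Of the 40 genes, 39 had such a probe set among the 18417 genes with 1 symbol, and GC, the vitamin D-binding protein gene, was not listed in the annotation used here.

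Caco-2 is an established human line from a colorectal adenocarcinoma that turns into enterocyte-like cells after confluence. There were 4 conditions with 1 array each: regular 6-well plates with vehicle or with 2 mM cholate, and Transwell inserts coated with collagen, again with vehicle or cholate. An insert is a porous membrane with medium on the apical and the basolateral side. Cholate, the sodium salt of cholic acid, was given for 3 h in a salt solution free of calcium, on the apical side of inserts. The sources used here do not state what the vehicle contained. Cells on inserts had serum-free medium on the basolateral side, and each array held RNA pooled from 3 samples. Labels give 21 days of differentiation for all conditions, while the protocol gives 14 days for plates and 14 to 21 for inserts, so support, coating, culture age and medium compartments cannot be told apart.

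Hepatocytes secrete most proteins of blood plasma: carriers for hormones, lipids, heme and retinol, inhibitors of proteases, and the zymogens of clotting and complement. Their genes are driven by the liver-enriched factors HNF4, FOXA and C/EBP, several of which are also present in the small intestine and in Caco-2 cells. Inflammation, through IL-6 and IL-1, raises some of them (positive acute phase proteins such as haptoglobin and fibrinogen) and lowers others (negative ones such as albumin and transthyretin).

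Values are log2 intensities as deposited, and a value of 1 more means a doubling of the signal. Array medians lay between 5.64 and 5.73. A gene counted as above the floor when its mean over the 4 arrays was at least 4.84, the 40th percentile of all probe sets. That held for 35 of the 39 genes and for 12900 of all genes with 1 symbol. ITIH1, SERPINA3 and PLG were under 4.84 on all 4 arrays and FETUB on 3 of them. Because probes bind with different strength, the level of a gene was compared with itself on the other arrays and not with that of another gene.

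Most enterocyte marker genes lay above the floor by their mean over the 4 arrays. Of 20 markers, 19 were measured and 18 lay above the floor. The summed log2 values of the 19 measured markers ran from 170.05 in plate vehicle to 174.18 in Transwell cholate. VIL1, the microvillus protein villin, read 11.39 in plate vehicle and 11.41 in Transwell cholate. Markers of other cell types showed summed log2 values of 39.41 to 40.55 for 8 fibroblast genes, 38.74 to 39.55 for 7 leukocyte genes and 27.15 to 27.88 for 6 endothelial genes. Each sum is read across the arrays only, since the lists differ in length. Above the floor were 5 of the 8 fibroblast, 3 of the 7 leukocyte and 2 of the 6 endothelial genes. Among them CD68, a lysosomal protein of macrophages, read 8.71 to 9.45, CD14, a receptor for bacterial lipopolysaccharide, 8.39 to 8.79, COL1A1, a collagen chain, 7.57 to 8.15, and PECAM1, an endothelial adhesion protein, 5.58 to 6.27. Others such as PTPRC, DCN and KDR, which mark leukocytes, fibroblasts and endothelium, were under the floor on all arrays (at most 3.05, 3.08 and 3.55). Whether these genes have a part in the differences below was not tested.

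**Figure D1:**
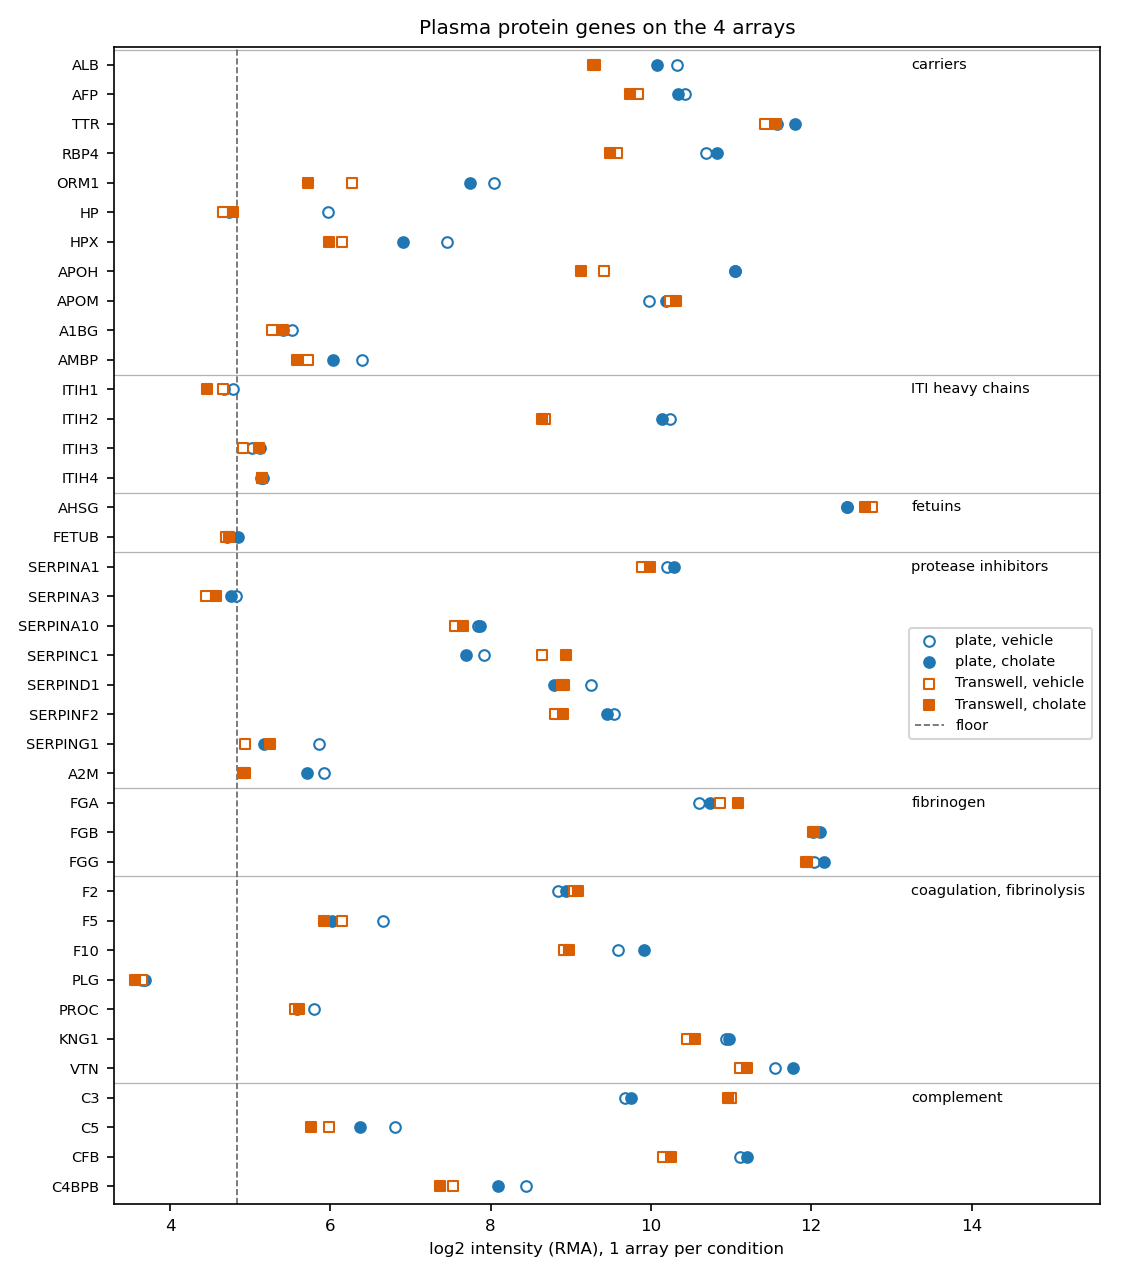
Log2 intensity (horizontal axis) of the 39 measured plasma protein genes, grouped by role, with 1 point for each of the 4 arrays and the floor of 4.84 as a dashed line. For ORM1, APOH, ITIH2 and RBP4 both Transwell squares lie at least 1.11 log2 to the left of the plate circles, for C3 and SERPINC1 they lie to the right, and those of FGB and FGG nearly coincide with the plate.

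The main difference in these genes was between growth supports. In both treatments 12 of the 35 genes above the floor (34.3%) were at least 1.5-fold lower on Transwell than on the plate: ALB, AFP, RBP4, ORM1, HPX, APOH, ITIH2, A2M, F10, C5, CFB and C4BPB. Among all 12900 genes above the floor, 1.84% were. In the other direction, C3 and SERPINC1 were at least 1.5-fold higher in both treatments (5.71%, against 1.19% of all genes). The vehicle pair and the cholate pair of arrays share no array. Because the list was chosen with earlier results of these data known, these shares, here and below, are descriptive and give no independent support.

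Over the 35 genes the median Transwell minus plate difference was -0.49 log2 in vehicle and -0.25 in cholate, against 0.02 in each over all genes. In vehicle alone, 16 were at least 1.5-fold lower (45.7%; 3.16% of all genes) and 2 higher (1.93% of all genes). In cholate alone, 12 were lower (3.75% of all genes) and 2 higher (4.02%), and these were the same genes as in both treatments. The 4 that were past 1.5-fold in vehicle only were HP, AMBP, SERPINF2 and SERPING1. Of these, HP passed the floor only through its plate vehicle value, on which its difference in vehicle also rests. For 20 genes both Transwell values lay below both plate values (57.1%; 24.8% of all genes), and for 6 above (17.1%; 31.9%). With no floor, 12 of 39 genes were lower (30.8%; 1.35% of all 18417 genes) and 2 higher (0.89% of all genes).

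A limma fit over all 4 arrays, with support and treatment as additive terms, called 0 of the 35 genes for support at a Benjamini-Hochberg adjusted p under 0.05. It also called 0 of all genes (0.0%), with a smallest adjusted p of 0.0858. At an unadjusted p under 0.05 there were 22 of the 35 (62.9%), against 24.1% of all genes. The call depends on the setting: with a floor at the 60th percentile, which 25 of the genes reached, 12 passed as lower and 2 as higher on Transwell, against 3.89% and 2.95% of all genes. With a trended, robust prior 9 and 1 of the 35 passed, against 1.1% and 0.589%. The fit has 1 residual degree of freedom, taken from the difference between the 2 pairs of arrays, so its standard errors (SE) do not measure the spread between cultures.

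**Figure D2:**
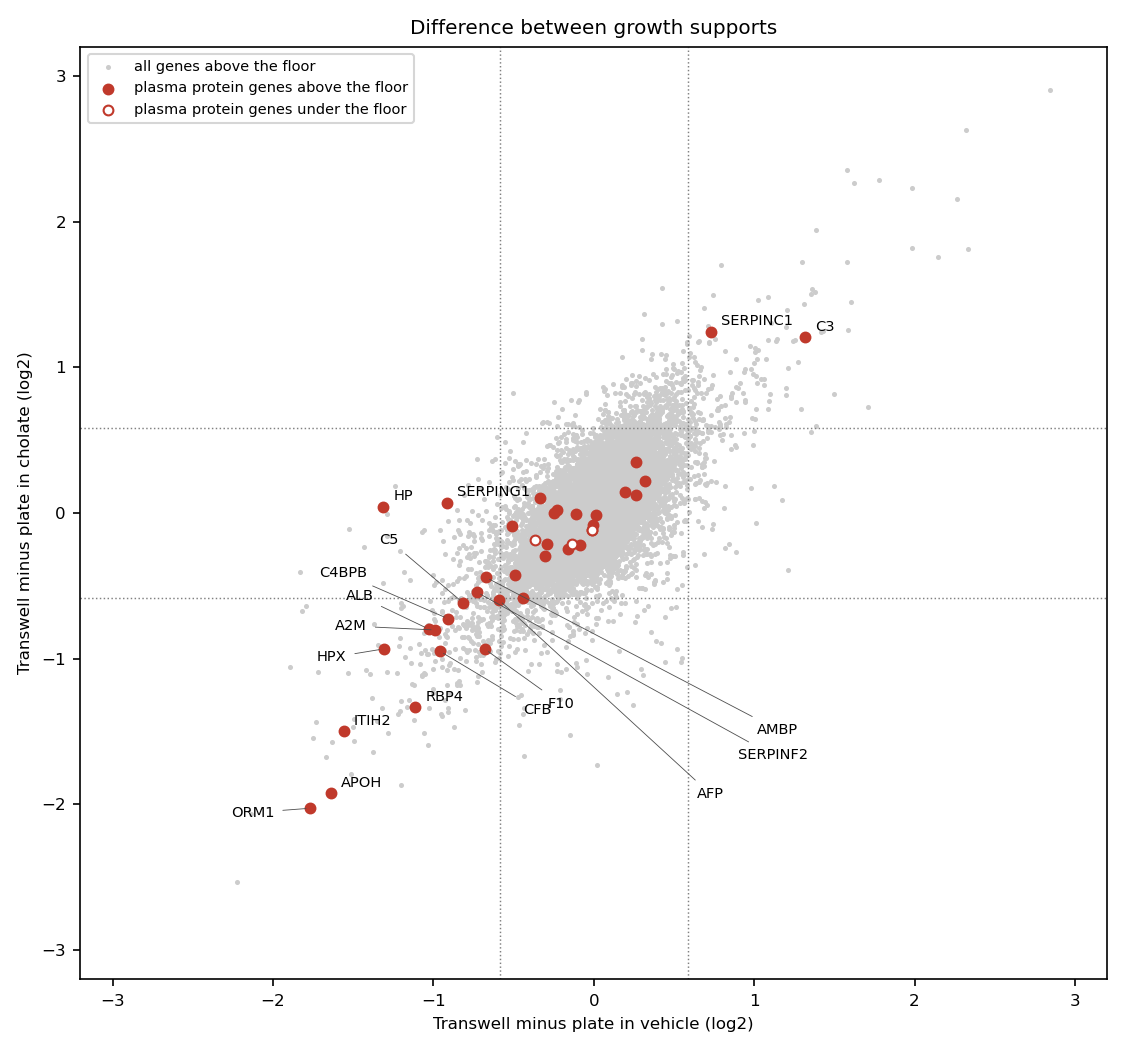
Transwell minus plate (log2) in vehicle, horizontal, against the same difference in cholate, vertical, for plasma protein genes (red) and all genes above the floor (grey), with dotted lines at 1.5-fold. The 12 genes in the lower left corner reach -1.77 and -2.03 at ORM1, C3 and SERPINC1 lie in the upper right, and HP and SERPING1 are low in vehicle only.

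Promoter sequences were set beside these differences because C/EBP factors drive many of these genes in liver. RefSeq windows (GRCh38.p14) were available for 31 of the 40 genes, and the 250 bases before the gene start were searched on both strands. The letters TTGCNNAA, a form of the palindrome that C/EBP factors bind, occurred in 12 of the 31 genes (38.7%) and in 9.8% of 15842 protein-coding genes. They occurred in 4 of 10 genes that were lower on Transwell in both treatments and in 8 of the other 21. Windows are shown for 4 of each kind, with these letters or their reverse complement in capitals, all 5′ to 3′ on the strand of the gene. The first 4 belong to genes lower on Transwell.
ALB (chr4:73404037-73404286, + strand): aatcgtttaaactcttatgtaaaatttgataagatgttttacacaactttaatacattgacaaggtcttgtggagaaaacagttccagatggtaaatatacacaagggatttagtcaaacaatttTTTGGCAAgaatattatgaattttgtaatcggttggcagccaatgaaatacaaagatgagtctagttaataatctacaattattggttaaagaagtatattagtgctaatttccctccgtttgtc
AFP (chr4:73435971-73436220, + strand): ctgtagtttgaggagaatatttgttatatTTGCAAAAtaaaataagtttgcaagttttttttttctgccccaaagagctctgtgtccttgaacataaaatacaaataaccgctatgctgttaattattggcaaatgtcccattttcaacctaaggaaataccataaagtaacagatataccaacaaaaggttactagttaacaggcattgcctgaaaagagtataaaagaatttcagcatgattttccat
RBP4 (chr10:93601236-93601485, - strand): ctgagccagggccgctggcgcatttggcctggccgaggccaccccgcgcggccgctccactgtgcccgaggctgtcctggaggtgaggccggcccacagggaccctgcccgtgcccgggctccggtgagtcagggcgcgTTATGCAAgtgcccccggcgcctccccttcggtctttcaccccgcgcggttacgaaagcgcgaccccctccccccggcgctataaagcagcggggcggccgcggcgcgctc
HPX (chr11:6440988-6441237, - strand): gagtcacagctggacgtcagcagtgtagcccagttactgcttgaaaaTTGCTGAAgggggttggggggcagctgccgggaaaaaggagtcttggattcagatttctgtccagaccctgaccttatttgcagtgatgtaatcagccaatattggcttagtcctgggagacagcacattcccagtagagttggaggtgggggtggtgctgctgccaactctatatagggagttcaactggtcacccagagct
The next 4 belong to genes that were not 1.5-fold apart.
FGA (chr4:154590743-154590992, - strand): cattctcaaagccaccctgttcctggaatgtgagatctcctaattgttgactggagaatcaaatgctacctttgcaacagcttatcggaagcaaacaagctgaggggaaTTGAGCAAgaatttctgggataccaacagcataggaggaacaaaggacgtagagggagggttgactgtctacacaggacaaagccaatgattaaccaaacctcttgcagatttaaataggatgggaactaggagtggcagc
FGB (chr4:154562730-154562979, + strand): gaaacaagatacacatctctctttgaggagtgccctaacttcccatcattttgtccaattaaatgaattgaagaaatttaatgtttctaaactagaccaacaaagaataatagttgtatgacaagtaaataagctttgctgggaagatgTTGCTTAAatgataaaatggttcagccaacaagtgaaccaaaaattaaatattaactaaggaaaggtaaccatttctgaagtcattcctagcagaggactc
AHSG (chr3:186612810-186613059, + strand): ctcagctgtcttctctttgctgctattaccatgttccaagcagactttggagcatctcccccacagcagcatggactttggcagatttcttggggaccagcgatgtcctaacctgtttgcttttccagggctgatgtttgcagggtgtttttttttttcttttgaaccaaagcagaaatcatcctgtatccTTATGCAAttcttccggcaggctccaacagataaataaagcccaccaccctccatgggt
KNG1 (chr3:186717109-186717358, + strand): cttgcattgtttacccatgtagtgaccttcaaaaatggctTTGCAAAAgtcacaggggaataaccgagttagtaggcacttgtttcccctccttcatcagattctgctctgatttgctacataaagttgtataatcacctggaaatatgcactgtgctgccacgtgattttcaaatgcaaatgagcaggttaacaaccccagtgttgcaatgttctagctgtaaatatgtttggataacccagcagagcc
Within these windows the first base of the match lay at -125 from the start in ALB, -221 in AFP, -111 in RBP4 and -203 in HPX. It lay at -141 in FGA, -101 in FGB, -59 in AHSG and -210 in KNG1. Matches thus lay at scattered distances in both kinds of gene.

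Other motifs were counted in the same windows. CTGGGAA, the core of an IL-6 response element, was in 8 of the 31 genes (25.8%; 12.2% of protein-coding genes), and CAAAGTCCA, a core of the HNF4 site, in AHSG alone (3.23%; 0.417%). TATAAA was in AFP, RBP4, ORM1, CFB and FETUB (16.1%; 11.9%), that is in 4 of the 10 lower genes and 1 of the other 21. These counts are of letters in a window and do not show that a factor binds there.

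Carriers made up 6 of the 12 lower genes. ORM1, the acute phase lipocalin orosomucoid, read 8.04 in plate vehicle, 7.75 in plate cholate, 6.28 in Transwell vehicle and 5.72 in Transwell cholate. It was 3.41-fold lower on Transwell in vehicle and 4.08-fold in cholate, a mean difference of -1.90 log2 (limma SE 0.11, adjusted p = 0.0858). ORM2, a near-identical neighbour that is not among the 40 genes, read 8.03 and 7.57 on the plate and 6.61 and 6.50 on Transwell, and signal of the 2 genes may be shared between their probes. APOH, the phospholipid-binding beta-2-glycoprotein I, read 11.05 in both treatments on the plate and 9.41 and 9.13 on Transwell in vehicle and cholate. Its mean difference was -1.78 (SE 0.11, adjusted p = 0.0858), with 3.11-fold and 3.79-fold lower signal.

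RBP4, which carries retinol, read 10.69 and 10.83 on the plate and 9.58 and 9.50 on Transwell, in vehicle and cholate in turn, a mean of -1.22 (SE 0.10). Its partner in plasma, the thyroid hormone carrier TTR, read 11.58 and 11.80 on the plate and 11.42 and 11.56 on Transwell. TTR stood at -0.16 and -0.25 log2 (adjusted p = 0.276 in the limma fit), short of 1.5-fold, and whether it differs from RBP4 in this was not tested.

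ALB, the main protein of plasma, read 10.33 in plate vehicle, 10.08 in plate cholate, 9.30 in Transwell vehicle and 9.28 in Transwell cholate. AFP, the fetal relative of albumin, read 10.42, 10.34, 9.83 and 9.74 in the same order. All Transwell values of both genes lay below all plate values, by a mean of -0.91 for ALB (SE 0.10) and -0.59 for AFP (SE 0.09). AFP lies at the threshold, with 1.51-fold in each treatment. HPX, the heme scavenger hemopexin, read 7.45 and 6.91 on the plate and 6.14 and 5.98 on Transwell, and was 2.48-fold and 1.91-fold lower.

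The remaining carriers differed less or in 1 treatment. HP, haptoglobin, which binds free hemoglobin, read 5.97 in plate vehicle and 4.74, 4.66 and 4.78 on the other arrays, all 3 under the floor. Its near-identical relative HPR read 5.24 and 5.07 on the plate and 4.81 and 4.71 on Transwell, so signal may be shared here too. AMBP, the precursor of alpha-1-microglobulin and bikunin, read 6.40 and 6.03 on the plate and 5.72 and 5.59 on Transwell, a mean of -0.56 (SE 0.10, adjusted p = 0.126). APOM, a lipocalin of high density lipoprotein, read 9.97 in plate vehicle, below the other arrays (10.19 to 10.31), with the same values in each of its 3 probe sets. A1BG, a plasma glycoprotein of the immunoglobulin family, stayed within 5.27 to 5.52.

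Chains of the inter-alpha-trypsin inhibitors, which bind hyaluronan in the matrix, gave a single gene with a large difference. ITIH2 read 10.24 and 10.14 on the plate and 8.68 and 8.64 on Transwell, 2.95-fold and 2.82-fold lower, with a mean of -1.53 (SE 0.09, adjusted p = 0.0858). ITIH3 (4.91 to 5.12) and ITIH4 (5.14 to 5.16) were close to the floor on all arrays and ITIH1 under it (4.46 to 4.79). ITIH1, ITIH3 and ITIH4 follow each other on chromosome 3 with 0 protein-coding genes between them, and ITIH2 lies on chromosome 10.

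Fetuins are cystatin-like glycoproteins, of which fetuin-A inhibits calcification. AHSG, fetuin-A, read 12.45 in both treatments on the plate and 12.76 and 12.67 on Transwell, higher by 0.32 and 0.22 log2 (adjusted p = 0.207). FETUB read 4.70 to 4.85. Their neighbour KNG1, the kininogen gene with 1 protein-coding gene between it and FETUB, went the other way, with 10.94 and 10.97 on the plate and 10.44 and 10.55 on Transwell (mean -0.46, SE 0.09, adjusted p = 0.129).

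Among protease inhibitors, SERPINC1 was the single gene that was 1.5-fold higher. SERPINC1 encodes antithrombin, which inactivates thrombin and activated factor X, and read 7.91 and 7.69 on the plate and 8.64 and 8.94 on Transwell. It was 1.66-fold higher in vehicle and 2.37-fold in cholate, a mean of 0.99 (SE 0.16, adjusted p = 0.116). Its targets were at other values: F2, prothrombin, read 8.84 and 8.94 on the plate and 9.03 and 9.09 on Transwell, and F10, factor X, 9.59 and 9.91 on the plate and 8.91 and 8.98 on Transwell (mean -0.81, SE 0.11).

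A2M, the broad protease trap alpha-2-macroglobulin, read 5.92 and 5.71 on the plate and 4.93 and 4.91 on Transwell, where it was close to the floor, so its 1.98-fold and 1.75-fold differences may be understated. SERPINF2, the plasmin inhibitor, read 9.54 and 9.45 on the plate and 8.81 and 8.91 on Transwell, just past 1.5-fold in vehicle (1.66-fold) and just short of it in cholate (1.46-fold). SERPINA1, alpha-1-antitrypsin, read 10.20 and 10.29 on the plate and 9.89 and 9.99 on Transwell, a difference of -0.30 and -0.29. SERPINA10, the protein Z-dependent inhibitor and a close neighbour of SERPINA1 on chromosome 14, was lower by a like amount (-0.29 and -0.21), and SERPINA3, further along, read 4.45 to 4.82. SERPIND1, heparin cofactor II, read 9.25 in plate vehicle, above the other arrays (8.79 to 8.92). SERPING1, the C1 inhibitor, read 5.86 in plate vehicle, with the others between 4.94 and 5.25.

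The fibrinogen chains were nearly level. FGB read 12.03 and 12.11 on the plate and 12.02 and 12.03 on Transwell, and FGG 12.04 and 12.16 on the plate and 11.95 and 11.94 on Transwell. FGA read 10.60 and 10.74 on the plate and 10.86 and 11.09 on Transwell, higher by 0.26 and 0.35 (adjusted p = 0.181). The 3 genes are adjacent on chromosome 4 and their products form 1 hexamer. FGA had both Transwell values above both plate values (31.9% of all genes did), FGG had them below (24.8%), and those of FGB overlapped. ALB and AFP, adjacent to each other on the same chromosome, lie 314 protein-coding genes away.

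Of the other clotting genes, VTN, the adhesion protein vitronectin, read 11.55 and 11.78 on the plate and 11.11 and 11.20 on Transwell (mean -0.51, SE 0.09, adjusted p = 0.123). F5, the cofactor of activated factor X, read 6.66 in plate vehicle, above the other arrays (5.92 to 6.15). PROC, protein C, stayed within 5.56 to 5.79, and PLG, plasminogen, within 3.57 to 3.69, under the floor.

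Complement genes differed in both directions. C3, on which all activation pathways converge, read 9.68 and 9.75 on the plate and 10.999 and 10.96 on Transwell, 2.49-fold and 2.31-fold higher (mean 1.26, SE 0.09, adjusted p = 0.0858). CFB, factor B, which joins C3 in the alternative pathway convertase, read 11.11 and 11.20 on the plate and 10.15 and 10.25 on Transwell, 1.94-fold and 1.93-fold lower (adjusted p = 0.0858). Its 3 probe sets had means of 10.22, 10.37 and 10.68 and the same order of arrays. C5 read 6.80 and 6.37 on the plate and 5.99 and 5.76 on Transwell, and C4BPB, the beta chain of the C4b-binding protein, 8.44 and 8.09 on the plate and 7.53 and 7.37 on Transwell. These were 1.76-fold and 1.53-fold lower for C5 and 1.88-fold and 1.65-fold for C4BPB.

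In RNA of whole cultures, fewer cells that make a transcript and less of it per cell cannot be told apart. Of 18 enterocyte marker genes, 2 were at least 1.5-fold higher on Transwell in both treatments (11.1%; 1.19% of all genes), LGALS4 and FABP2. In the other direction 1 was lower (5.56%; 1.84%), CA2. ANPEP, a brush border peptidase, stood at 0.79 and 0.53. LGALS4, a galectin of the gut lining, was higher by 1.14 and 1.18 log2, and FABP2, which binds fatty acids in absorptive cells, by 1.03 and 1.46, from plate values of 4.49 and 4.71 under the floor. FABP2 thus passed the floor only through its Transwell values. Whether the difference of these marker genes has a part in that of the plasma protein genes was not tested.

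Other genes of liver type were counted from lists chosen by function. Of 73 other plasma protein genes, 65 were measured and 40 were above the floor. Of these 40, 8 were lower and 4 higher at 1.5-fold in both treatments, against 1.84% and 1.19% of all genes. Larger shares than among all genes, in both directions, were thus not particular to the plasma protein genes followed here. CP, the copper ferroxidase ceruloplasmin, was higher by 2.32 and 2.63 log2 and MBL2, a lectin that starts complement activation, by 1.28 and 1.03. FGL1, a hepatocyte-secreted relative of fibrinogen, was lower at -1.39 and -1.11 and C1S, a protease of the first complement component, at -1.22 and -0.91. The median over the 40 genes was -0.14 in vehicle and -0.05 in cholate.

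Intracellular hepatocyte genes (enzymes and transporters) gave 2 lower (9.52%; 1.84% of all genes) and 0 higher of 21 above the floor. Their median was -0.05 in vehicle. SLC10A1, the sodium-dependent bile acid importer of hepatocytes, was lower at -2.14 and -2.06 log2, from 9.89 and 9.72 on the plate to 7.75 and 7.66 on Transwell. PCK1, an enzyme of gluconeogenesis, stood at -0.94 and -0.68. Differences of ADH4 (0.56 and 0.66) and CPS1 (-0.45 and -0.59) were smaller. In cholate UGT2B4, a glucuronosyltransferase of bile acids, stood at -0.69 on plates and -0.07 on inserts.

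Liver and gut transcription factor genes gave 1 lower and 1 higher of 24 above the floor (4.17% each; 1.84% and 1.19% of all genes). NR5A2, a nuclear receptor of liver and gut, was lower at -0.67 in each treatment, and NR1I3, the xenobiotic receptor CAR, higher by 0.62 and 0.68. CDX2, a homeobox factor that defines intestinal cells, was higher by 1.0 and 0.56, while ZBTB20 and ZHX2, repressors of AFP, stood at -0.46 and -0.69 and at -0.39 and -0.44. HNF4A was not listed with a probe set of its own in the annotation used here. Genes of IL-6 and IL-1 signalling gave 1 lower and 1 higher of 21 (4.76% each). PIM1, a kinase gene induced through STAT3, stood at -0.75 and -0.78, and IL1B was higher by 2.15 and 1.75.

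**Figure D3:**
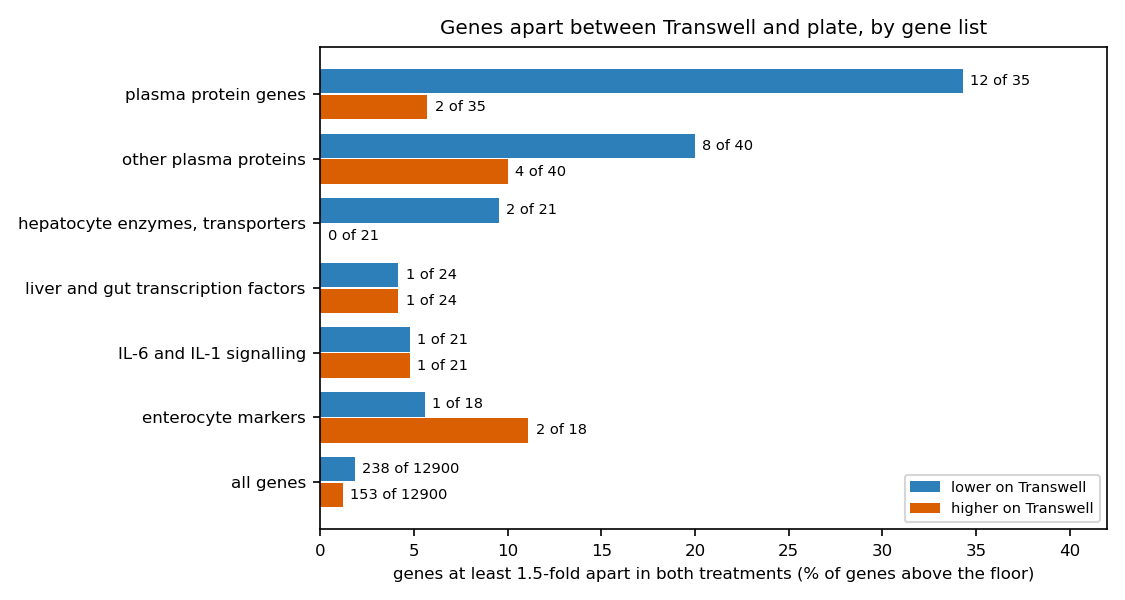
Share of genes above the floor (horizontal axis, %) at least 1.5-fold lower (blue) or higher (orange) on Transwell than on the plate in both treatments, by gene list, with counts at the bars. The bar of the plasma protein genes ends at 34.3% lower, that of all genes at 1.84%.

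The second comparison was of cholate with vehicle, and here the median differences of the plasma protein genes lay close to those of all genes. On both supports together 0 of the 35 genes above the floor were 1.5-fold lower and 0 higher, where 0.504% and 0.178% of all genes were. With shares this small over all genes, 0 of 35 does not set these genes apart. On the plate alone 3 were lower (8.57%; 2.35% of all genes) and 0 higher (1.49% of all genes), and on Transwell alone 0 were lower (0.736%) and 0 higher (0.357%). The median difference was -0.002 log2 (plate) and 0.009 (Transwell), against -0.025 and -0.011 over all genes. In the limma fit 0 of 35 genes, and 0.0% of all genes, passed for cholate, and 3 (ORM1, F5 and C5) had an unadjusted p under 0.05, against 7.99% of all genes.

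The 3 genes lower on the plate were HP (-1.23 log2), SERPING1 (-0.68) and F5 (-0.64). Their responses on Transwell were 0.13, 0.31 and -0.22. Each had its highest value in plate vehicle, the array that all 3 differences on the plate rest on, and HP on Transwell was already under the floor before cholate. That array is also the only one through which HP passed the floor, so its counts here are not independent of the filter. HP was the single gene of the 35 whose responses on the 2 supports differed by at least 1 log2 unit (1.36). Among all 12900 genes above the floor, 48 reached that threshold. SERPING1 was just short of it (0.99). Whether the plate vehicle pool was high in these genes, or cholate lowered them on the plate, cannot be told apart. TF, the iron carrier transferrin, outside the 40 genes, showed a like set of values, from 7.30 in plate vehicle down to between 5.89 and 6.08 elsewhere.

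Plate vehicle held the highest of the 4 values in 17 of the 35 genes (48.6%; 24.6% of all genes) and plate cholate in 12 (34.3%; 26.2%). Transwell vehicle held it in 2, AHSG and C3 (25.5% of all genes), and Transwell cholate in 4 (23.8%): APOM, SERPINC1, FGA and F2. Since the 2 plate arrays are also those that differ from Transwell, this count is another view of the support difference and adds no separate evidence.

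Some genes had the same sign of difference on both supports. ORM1 stood at -0.30 (plate) and -0.55 (Transwell), with a limma mean of -0.43 (SE 0.11, adjusted p = 0.411). F5 stood at a mean of -0.43 (SE 0.14, adjusted p = 0.446) and C5 at -0.33 (SE 0.10, adjusted p = 0.443). HPX stood at -0.54 on the plate and -0.16 on Transwell, and C4BPB at -0.34 and -0.16. In the other direction TTR was at 0.23 and 0.14, VTN at 0.22 and 0.09 and F10 at 0.32 and 0.06.

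FXR is a nuclear receptor that bile acids activate, and in liver cells the fibrinogen genes, KNG1 and C3 are known to respond to FXR. In these pools FGA stood at 0.14 on the plate and 0.22 on Transwell, FGB at 0.09 and 0.01 and FGG at 0.12 and -0.01. KNG1 stood at 0.04 and 0.11, and C3 at 0.07 and -0.04. None of these 5 genes reached 1.5-fold, and their unadjusted limma p-values for cholate ran from 0.116 to 0.877. NR1H4, the gene of FXR, was not listed with a probe set of its own, and whether FXR was active in these pools was not tested. The inverted repeat that FXR binds (AGGTCA and TGACC apart by 1 base) was searched too. It was found before the start of ITIH3 alone of the 31 genes (3.23%), and in 2 of 15842 protein-coding genes (0.0126%). The share among the 31 rests on a single match. ITIH3 stood at 0.10 and 0.20, near the floor.

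Of genes around the acute phase response, CEBPB, a C/EBP factor that IL-6 activates, was higher in cholate by 0.84 (plate) and 0.13 (Transwell), and NFKBIA, an inhibitor of NF-kappaB, by 0.67 and 0.32. IL1R1, the receptor of IL-1, stood at -0.71 and -0.40, and IL18 at -0.38 and -0.76. SERPINF1, a serpin that inhibits no protease, outside the 40 genes, stood at -0.74 and -0.52. None of the 40 other plasma protein genes above the floor was 1.5-fold apart in cholate on both supports. Of all genes 0.504% were lower and 0.178% higher, so this count does not set that list apart.

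**Figure D4:**
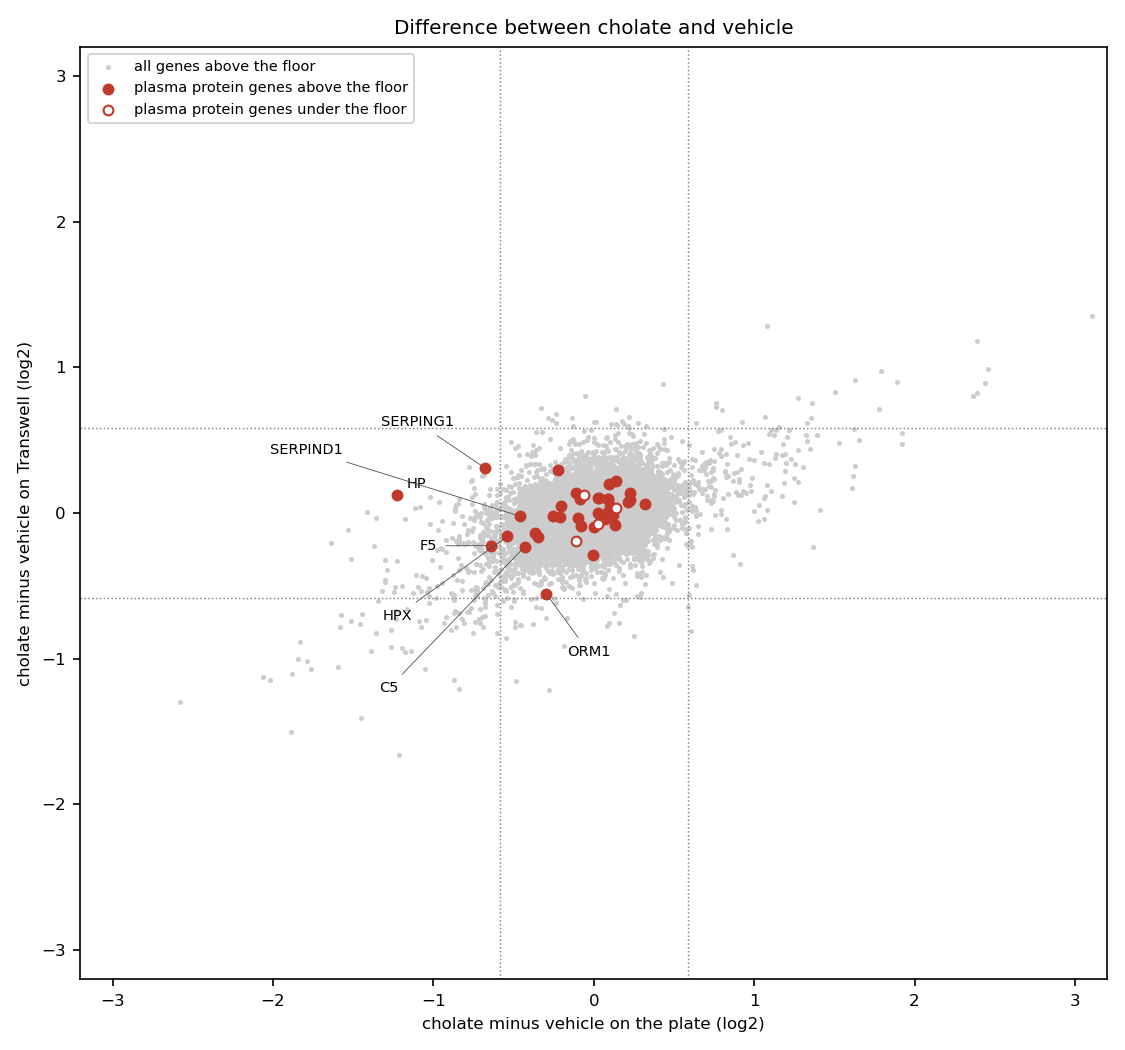
Cholate minus vehicle (log2) on the plate, horizontal, against Transwell, vertical, for plasma protein genes (red) and all genes above the floor (grey), with dotted lines at 1.5-fold. All plasma protein genes lie between -0.55 and 0.31 on Transwell, and HP (-1.23), SERPING1 (-0.68) and F5 (-0.64) lie past the line on the plate.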

How the data were processed

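RNA of Caco-2 cells was measured on 4 arrays, 1 per condition, each from a pool of 3 RNA samples, so the arrays give no spread between cultures and their number limits the precision. The authors deposited 1 log2 intensity for each probe set and array, made with RMA (background correction, normalization between arrays, probe summary), per the submitters' processing notes. The sources used here do not name a version. Normalization would hide a change shared by most transcripts, and differences near background are compressed. Of 33297 probe sets, 19460 had 1 gene symbol in the platform annotation, 1754 several and 12083 none listed. Each gene is represented by its probe set with the highest mean. The floor is the 40th percentile of the means (19978 probe sets kept). Differences between 2 arrays have no test; 1.5-fold was the threshold. The fit across all probe sets above the floor used limma 3.58.1 in R 4.3.3 (lmFit, eBayes, 2-sided, additive support and treatment, Benjamini-Hochberg) and passes at an adjusted p under 0.05. It was also run on simulated data in which all probe sets shared the same spread, which does not show its error rate in these data.

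The members and gene lists were chosen with earlier results of these data known, so no p is adjusted over a list. All 40 members are named, with full values where they were 1.5-fold apart in both pairs of arrays, among the 5 highest or lowest in level, or 1 log2 apart in response. Named too are, from each other list up to 4 genes above the floor with the largest support mean and 2 with the largest cholate mean; of the fibroblast, leukocyte and endothelial lists sums, counts and a few examples are given. PTPRC, DCN, KDR, VIL1, ORM2, HPR, HNF4A and NR1H4 were named outside this rule. Promoter windows are from RefSeq, trimmed to the bases before the start. Alternatives were median centring, quantile normalization, cyclic loess, no floor, a floor at the 60th percentile, the mean of all probe sets, another prior, a model with 1 factor and a 2-fold threshold.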

Additional observations from a re-analysis of the deposited data

How the results depend on the processing

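The 12 genes at least 1.5-fold lower on Transwell in both treatments of 35 (1.84% of all genes) numbered 10 under median centring (without AFP and C5; 1.64% of all genes), 11 after quantile normalization (1.86%), 13 after cyclic loess (2.09%) and 12 with the mean of all probe sets (1.82%). They numbered 12 of 39 with no floor (1.35%) and 10 of 25 with a floor at the 60th percentile (2.06%). At 2-fold, 4 were lower (RBP4, ORM1, APOH and ITIH2; 0.364% of all genes) and 1 higher. With limma, 0 genes passed for support under median centring, quantile normalization, cyclic loess, no floor, the mean of all probe sets and the model with support alone. With the floor at the 60th percentile 12 of 25 passed as lower and 2 as higher (3.89% and 2.95% of all genes), and with a trended, robust prior 9 and 1 of 35 (1.1% and 0.589%). The causes of these shifts were not tested, although fewer probe sets enter at the higher floor. For cholate 0 genes passed under every alternative run. The median cholate difference over the 39 genes, -0.002 on the plate and 0.009 on Transwell, was -0.07 and -0.04 under median centring. The additive fit compares the supports within each treatment, and the model with support alone is the fit without that pairing. For replicate numbers, no paired analysis was possible because each condition has 1 array and no second replicate.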
